A study of Mus musculus with 4 samples.

Results

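The nuclear-encoded genes of the mitochondrial respiratory chain and of ATP synthase were followed through 4 single-nucleus libraries of mouse brain. Members were chosen by symbol only: Nduf genes of the a, b, c, s and v series (complex I), Sdha to Sdhd (complex II), Uqcr genes (complex III), the lettered Cox4 to Cox8 genes (complex IV) and Atp5 genes (complex V, the ATP synthase), leaving out pseudogene symbols. This gave 84 of the 32285 genes in the files: 37 for complex I, 4 for complex II, 8 for complex III, 18 for complex IV and 17 for complex V. Complexes I and II pass electrons from NADH and succinate to ubiquinone, complex III hands them to cytochrome c, and complex IV reduces oxygen with them. The proton gradient built on the way drives ATP synthase. Neurons depend on this machinery to restore ion gradients after firing, and its subunits come from both the nuclear and the mitochondrial genome, so that nuclear transcripts have to be made, exported and translated before a complex can be built.

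Whole brain without cerebellum came from wild-type C57BL/6 mice aged 10 weeks. In the post-mortem groups the animals were killed by cervical dislocation, and in the in vivo groups the brain was taken by craniotomy under deep isoflurane anaesthesia. Dry ice froze all tissue within 10 min, an extraction of nuclei took no more than 50 mg of it, and nuclei were used either unfixed or after 30 min in 80% methanol at -20 °C. Each of the 4 combinations holds 1 library. The SeekOne DD droplet kit reads transcripts from their 3' ends and counts them by unique molecular identifiers (UMIs), so every ratio between groups compares 2 libraries, without a replicate check and without a test. Animal, tissue piece and harvest cannot be told apart, and the labels leave unstated if a harvest's 2 libraries share a brain.

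After filtering, 12483 post-mortem unfixed, 15134 in vivo unfixed, 9826 post-mortem methanol-fixed and 6833 in vivo methanol-fixed nuclei remained, with 51528633, 52116564, 67205676 and 59962448 UMIs, and values of the 4 libraries are given in this order throughout. Median depth per nucleus was 3785, 3025, 6301 and 7829 UMIs, so fixation and depth moved together. Pairs of libraries shared 42 to 150 kept barcodes, at most 1.20% of the smaller library. Nuclei were put into classes when at least 3 markers of a class were seen and led every other class by 2 or more. Class names below therefore stand for nuclei gated on markers ("oligodendrocyte-like" and so on), not for a deposited annotation. In the 4 libraries, 43.6 to 51.3% of the nuclei gated as interneurons sat at the edge of the gate, against 0.430 to 6.58% of those gated as oligodendrocytes.

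A feature that the choice by symbol did not use is the promoter. RefSeq promoters of build GRCm38.p6 (250 bases before to 50 after the start) were matched for 68 members. Nuclear respiratory factor 1 (NRF1) is a transcription factor known for its sites in respiratory chain genes, and its letters were searched on both strands as GCGC and TGCGC with 1 free base between them. It stood in 17 of the 68 member promoters (25.0%), in 12.4% of the promoters of other genes measured in these nuclei and in 5.14% of all other promoters of that length. The YY1 letters AAGATGGCG stood in 10.3% of member promoters against 3.75% of other measured genes. The ETS letters CCGGAAGT (7.35% against 9.28%) and the SP letters GGGGCGGGG (16.2% against 25.5%) were less frequent in members than in other measured genes. Both were more frequent in members than in all other promoters of that length. The TATA box letters TATAAA went the other way, with 11.8% in members, 8.21% in other measured genes and 15.7% in all other promoters. These are matches of letters, not sites. The 250 bases before the RefSeq start are shown for 4 members that recur below, because their NRF1 letters, in capitals, range from several places to none: Sdha and Ndufb4 with 3 places each, Atp5k with 1, and Ndufb11 with none.
Sdha, chr13:74350241-74350490, minus strand: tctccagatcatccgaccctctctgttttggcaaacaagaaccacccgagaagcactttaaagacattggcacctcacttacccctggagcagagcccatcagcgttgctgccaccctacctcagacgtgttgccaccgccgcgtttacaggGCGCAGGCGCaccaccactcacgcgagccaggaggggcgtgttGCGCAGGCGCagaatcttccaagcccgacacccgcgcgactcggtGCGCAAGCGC
Ndufb4, chr16:37654369-37654618, minus strand: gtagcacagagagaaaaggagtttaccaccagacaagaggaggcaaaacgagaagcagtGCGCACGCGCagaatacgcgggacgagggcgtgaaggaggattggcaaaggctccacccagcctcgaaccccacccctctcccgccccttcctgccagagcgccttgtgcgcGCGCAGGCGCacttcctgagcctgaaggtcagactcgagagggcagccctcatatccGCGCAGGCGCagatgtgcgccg
Atp5k, chr5:108434400-108434649, minus strand: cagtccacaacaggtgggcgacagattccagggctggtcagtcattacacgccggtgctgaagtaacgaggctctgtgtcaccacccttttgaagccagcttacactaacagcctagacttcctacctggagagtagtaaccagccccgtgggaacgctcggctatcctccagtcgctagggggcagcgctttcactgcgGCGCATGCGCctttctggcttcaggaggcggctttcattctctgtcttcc
Ndufb11, chrX:20617620-20617869, minus strand: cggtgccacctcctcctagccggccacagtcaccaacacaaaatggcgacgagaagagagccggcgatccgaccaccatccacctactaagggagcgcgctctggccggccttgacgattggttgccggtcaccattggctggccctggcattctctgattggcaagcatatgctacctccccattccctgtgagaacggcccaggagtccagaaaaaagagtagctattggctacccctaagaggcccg

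The 84 genes together took 0.235, 0.195, 0.291 and 0.254% of the UMIs in the 4 libraries. The counting error of these shares is small (for the post-mortem unfixed library the exact 95% Clopper-Pearson interval is 0.234 to 0.236%). These intervals cover counting error only, here and below. Complex I supplied 0.0917, 0.0762, 0.109 and 0.0944%, complex V 0.0580, 0.0490, 0.0770 and 0.0680%, and complex IV 0.0464, 0.0363, 0.0597 and 0.0517%. Complexes II and III supplied less, 0.0164 to 0.0196% and 0.0173 to 0.0255%. In each of the 5 complexes the methanol-fixed library of a harvest was above the unfixed one, and the in vivo library was below the post-mortem library of the same fixation.

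**Figure D1:**
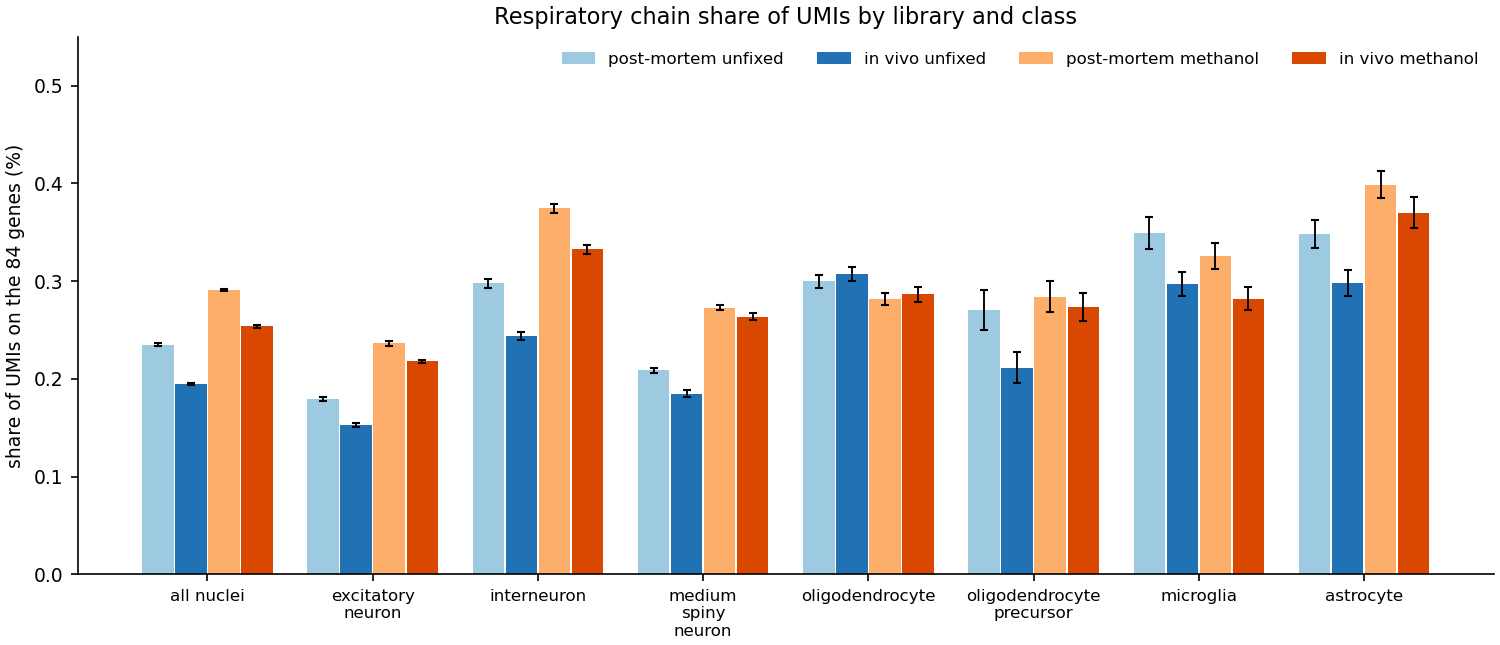
Share of UMIs (%) on the 84 genes in all kept nuclei and in 7 marker-gated classes, 1 bar per library, with exact 95% binomial intervals as error bars. The share was highest in the post-mortem methanol-fixed library over all nuclei (0.291%) and in the 3 neuronal classes, whereas in oligodendrocytes both fixed libraries (0.282 and 0.286%) lay below both unfixed ones (0.300 and 0.308%).

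Of the 84 members, 71 reached a mean of 10 UMIs per 1000000 UMIs of the library (CPM) over the 4 libraries and are called measured: 33 of complex I, 3 of complex II, 8 of complex III, 11 of complex IV and 16 of complex V. The last member above this limit was Ndufs8 at a mean of 10.6 CPM, and the first below it was Sdhd at 9.83 CPM. Ndufb6 (9.47 CPM), Atp5e (9.01 CPM), Cox7b2 (7.37 CPM) and Ndufs6 (7.13 CPM) also missed it. The tissue-restricted isoforms Cox6a2, Cox6b2, Cox7a1, Cox4i2, Cox8b, Cox8c and Ndufa4l2 stood at means of at most 1.42 CPM. Ndufa13 was listed at 0 UMIs in every library. It is the one member that overlaps another gene, Yjefn3, on the same strand, where reads may be given to neither gene, so the 0 is no measure of its expression. Divided by annotated exon length, Cox8a of complex IV had the largest mean value (91.8 CPM per kb), followed by Cox7c (66.9), Cox7b (49.8), Ndufb9 (47.8) and Cox4i1 (43.7). A 3' kit counts transcripts whatever their length, so this order favours members with short exons and is no ranking of transcript levels.

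Across all nuclei, most respiratory chain transcripts took a larger share of UMIs in the methanol-fixed library than in the unfixed library of the same harvest. Of the 71 measured members, 59 were higher in both pairs of libraries (41.0% of all 9789 measured genes were) and 8 were lower in both (46.9% of all genes). The median log2 ratio of CPM was 0.36 (post-mortem pair) and 0.47 (in vivo pair), against -0.02 in both pairs for all measured genes. Nuclei of all classes are summed here, so class makeup and level per nucleus cannot be told apart: with equal weight for each class the medians were 0.16 and 0.25, and among nuclei of 4000 to 8000 UMIs they were 0.50 and 0.82. In both pairs, 17 members were at least 1.5-fold higher, as were 3.51% of all genes, and 0 were at least 1.5-fold lower (4.29% of all genes). The log2 ratios of the 2 pairs, which share no library, had a Pearson r of 0.92 across the 71 genes, which are not independent replicates.

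Within complex I, 27 of 33 members were higher in both fixed libraries. Ndufs8, a core subunit that carries iron-sulfur clusters near the ubiquinone site, stood at 8.62, 6.01, 15.9 and 11.8 CPM, so that both fixed libraries lay above both unfixed ones. Its log2 ratios, post-mortem pair first as for all members below, were 0.89 (95% counting interval 0.72 to 1.05) and 0.98 (0.78 to 1.17). Ndufv1, the core subunit that binds NADH and the flavin, stood at 13.7, 11.3, 23.4 and 22.4 CPM, with log2 ratios of 0.77 and 0.98. Ndufs7 and Ndufb4 showed ratios of 0.73 to 0.78 in both pairs. Ndufs4, an accessory subunit whose loss in mice is used as a model of Leigh syndrome, held the most complex I UMIs and moved little, with 101, 92.3, 121 and 102 CPM and log2 ratios of 0.27 and 0.15. Ndufs1, the largest core subunit of the complex, was lower in both fixed libraries (87.7, 75.2, 79.5 and 69.4 CPM, log2 ratios of -0.14 and -0.12).

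Complex II was the exception. Its flavoprotein gene Sdha, in which the succinate is oxidised, stood at 74.3, 65.1, 97.9 and 86.9 CPM and was higher in both fixed libraries (log2 ratios of 0.40 and 0.42). Its iron-sulfur partner Sdhb stood at 70.6, 64.5, 56.7 and 50.7 CPM and was lower in both, with log2 ratios of -0.32 (-0.38 to -0.25) and -0.35 (-0.42 to -0.27), the lowest of the 71 members in each pair. The membrane anchor Sdhc was close to even (log2 ratios of -0.04 and -0.14). Sdha and Sdhb form the catalytic head of complex II together, and their intervals lay on opposite sides of 0 in both pairs.

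In complex III, 7 of 8 members were higher in both fixed libraries. Uqcrb, a small subunit at the ubiquinone-binding side, stood at 11.4, 9.02, 20.4 and 17.3 CPM, with log2 ratios of 0.84 and 0.94. Uqcrfs1, the Rieske iron-sulfur protein, had 0.70 and 0.87. The core protein gene Uqcrc1 was the member below 0 in both pairs, at -0.14 and -0.06.

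In complex IV, 8 of 11 members were higher in both fixed libraries. Cox5b, a subunit on the matrix side of the complex (chr1:36691449-36693681, plus strand, mm10), stood at 21.7, 18.4, 43.3 and 36.1 CPM, which is 2.00-fold and 1.96-fold higher. Cox7b stood at 50.6, 32.8, 91.7 and 66.6 CPM, with log2 ratios of 0.86 and 1.02. Cox4i1, the ubiquitous isoform of subunit 4, was higher by 0.25 and 0.46, and Cox7c by 0.40 and 0.48. Cox7a2l, known for its part in respiratory supercomplexes, was close to even at -0.03 and -0.09.

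In complex V, all 16 measured members were higher in both fixed libraries. Atp5k, subunit e of the membrane part (chr5:108433244-108434448, minus strand, mm10), stood at 13.7, 13.0, 32.7 and 25.5 CPM. Its log2 ratios of 1.26 (1.14 to 1.38) and 0.97 (0.84 to 1.11) include the largest of any measured member in the post-mortem pair. The c-ring gene Atp5g3 stood at 28.0, 21.1, 53.7 and 45.0 CPM, with ratios of 0.94 and 1.09. The other c-ring genes were higher too, Atp5g1 by 0.65 and 0.91 and Atp5g2 by 0.31 and 0.47. Of the catalytic head, Atp5b (beta) was higher by 0.38 and 0.56, while Atp5a1 (alpha) moved by 0.11 and 0.15.

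**Figure D2:**
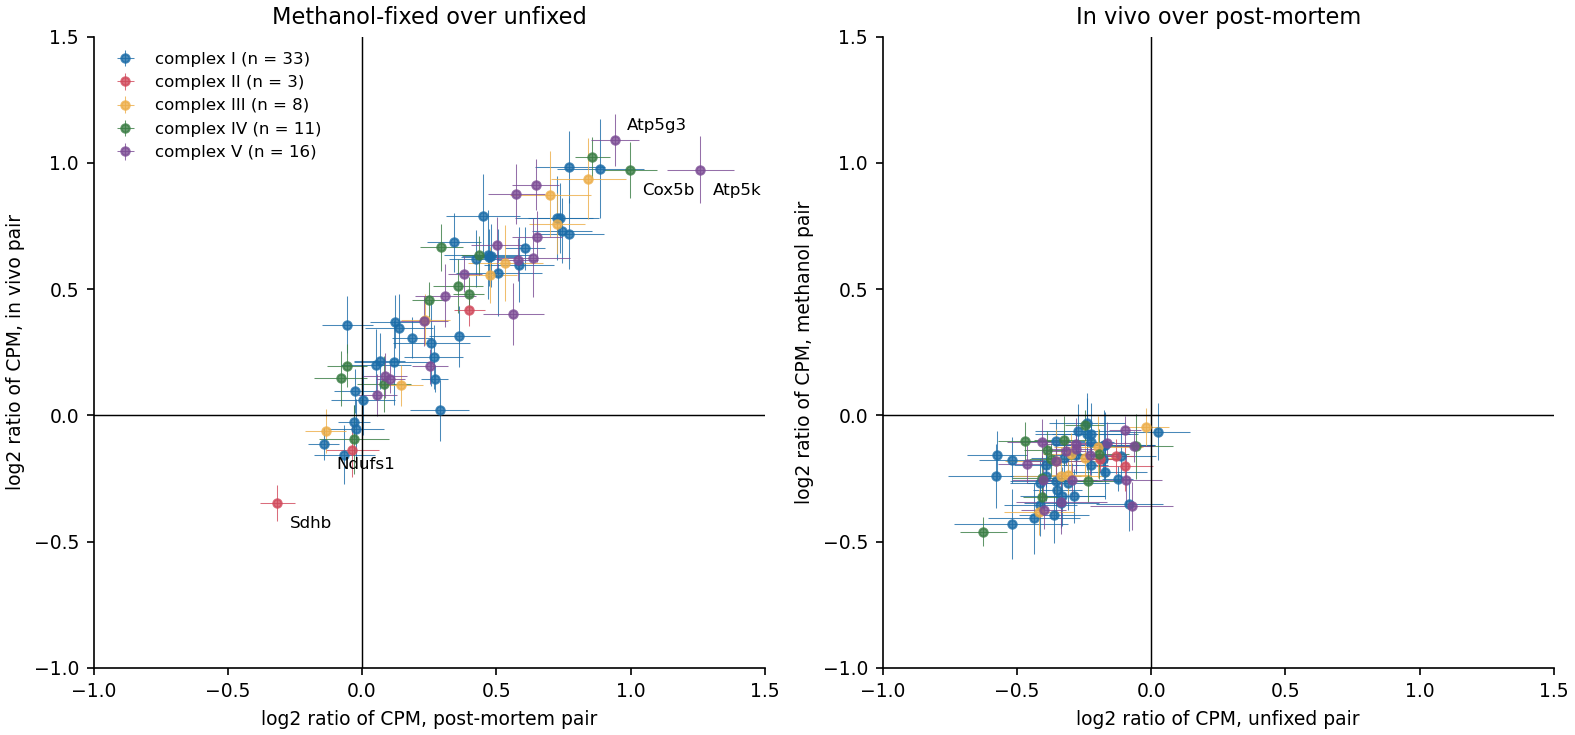
Each point is 1 of the 71 measured members, coloured by complex. The left panel plots the log2 ratio of CPM of methanol-fixed over unfixed in the post-mortem pair (x) against the in vivo pair (y), and the right panel that of in vivo over post-mortem in the unfixed pair (x) against the methanol pair (y). Bars are exact 95% counting intervals. In the left panel 59 points lie above 0 in both pairs and Sdhb lies lowest (-0.32 and -0.35); in the right panel 70 points lie below 0 in both.

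Ratios were higher in genes under 5 kb than in longer ones, inside and outside the group. Across the 71 members, the annotated gene length and the log2 ratio had a Spearman rho of -0.58 in the post-mortem pair and -0.65 in the in vivo pair (a description across genes, with no test). Members under 5 kb had medians of 0.48 and 0.64 (n = 22), beside 0.43 and 0.55 for the 488 other measured protein-coding genes of that length. At 5 to 10 kb the members stood apart from other genes of that length, with medians of 0.43 and 0.52 (n = 26) beside 0.10 and 0.21 (n = 743). From 10 to 20 kb the members had -0.02 and 0.20 (n = 13) beside -0.01 and 0.04 (n = 1474). Above 20 kb the members had 0.14 and 0.13 (n = 10) beside -0.05 and -0.07 (n = 6389), so that the members' medians did not fall steadily with length. The part that gene length plays in the result was not tested.

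**Figure D3:**
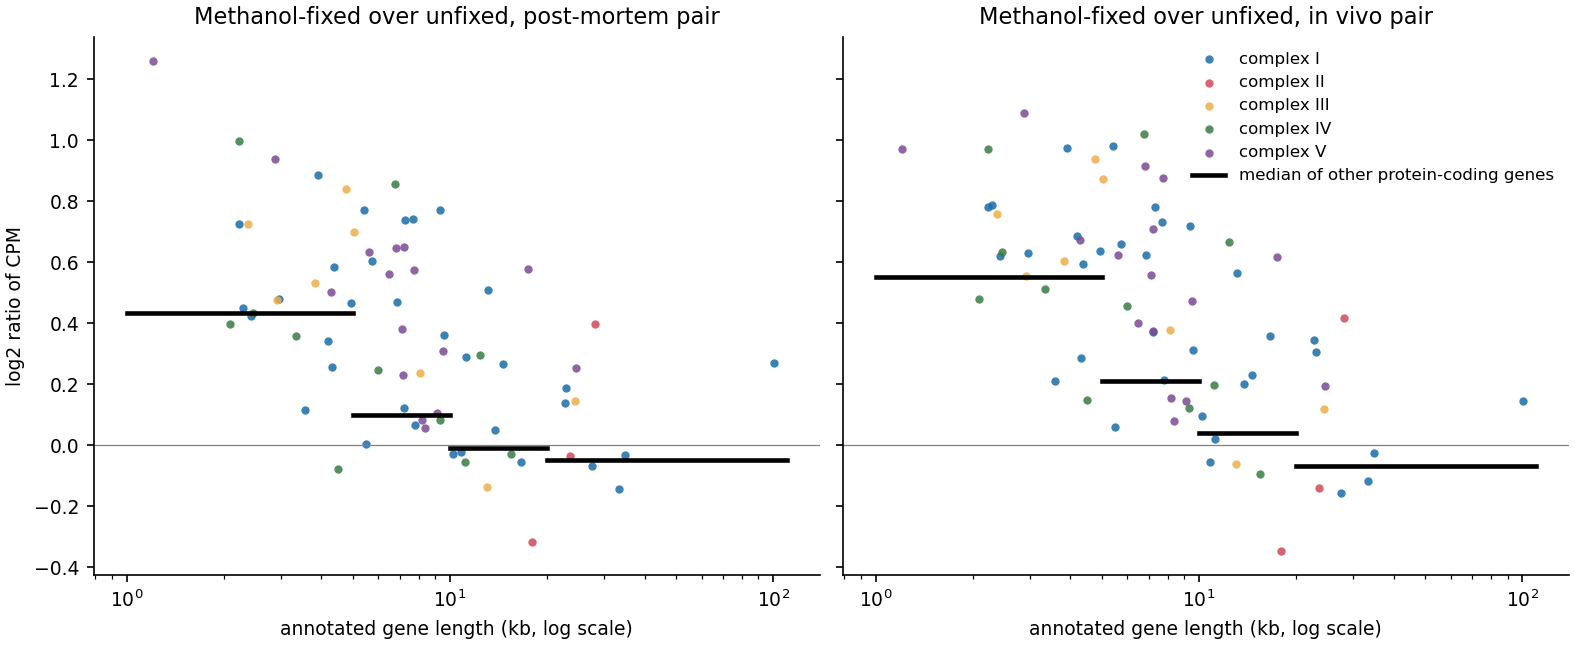
Log2 ratio of CPM, methanol-fixed over unfixed, against annotated gene length (kb, log axis) for the 71 measured members, coloured by complex, in the post-mortem pair (left) and the in vivo pair (right). Black bars give the median of other measured protein-coding genes under 5 kb (drawn from 1 kb), at 5 to 10 kb, 10 to 20 kb and above 20 kb. Members under 5 kb surround the bar of their length, and those at 5 to 10 kb have medians of 0.43 and 0.52 against bars at 0.10 and 0.21.

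By class, the medians of members were above 0 in both pairs in the neuronal classes and astrocytes, and below 0 in both pairs in oligodendrocytes and microglia. In excitatory neurons 50 of 62 measured members were higher in both fixed libraries and 4 lower (41.3% and 43.4% of all genes measured there), with medians of 0.46 and 0.58. Over the 9 members that reached a mean of 50 CPM there the medians were 0.15 and 0.21. In interneurons 62 of 74 were higher and 3 lower (37.4% and 39.9% of all genes), with medians of 0.37 and 0.50. In medium spiny neurons 55 of 68 were higher and 6 lower (38.7% and 44.8%), with medians of 0.51 and 0.67. Medians of all measured genes in these 3 classes lay between -0.03 and 0.00. Depth differed between the libraries, so the share was also taken in nuclei of 4000 to 8000 UMIs. There it was 0.186, 0.154, 0.266 and 0.254% in excitatory neurons, 0.299, 0.232, 0.378 and 0.340% in interneurons and 0.204, 0.176, 0.280 and 0.271% in medium spiny neurons, again with both fixed libraries above both unfixed ones.

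Atp5k and Atp5g3 had log2 ratios above 1 in both pairs in all 3 neuronal classes. In excitatory neurons Atp5k stood at 8.70, 9.43, 28.6 and 23.1 CPM (log2 ratios of 1.71 and 1.29) and Cox5b at 13.7, 13.0, 36.2 and 31.1 CPM (1.40 and 1.26). In interneurons Atp5g3 stood at 34.6, 27.6, 75.7 and 68.3 CPM (1.13 and 1.30), and Cox5b at 25.2, 18.5, 54.9 and 45.6 CPM (1.12 and 1.30). In medium spiny neurons Atp5g3 (1.25 and 1.35) and Atp5k (1.25 and 1.21) led. Sdhb was below 0 in both pairs in each of these classes, at -0.29 and -0.36 in excitatory neurons, -0.40 and -0.27 in interneurons and -0.46 and -0.16 in medium spiny neurons.

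In astrocytes 35 of 65 measured members were higher in both fixed libraries and 8 lower (26.0% and 38.2% of all genes), with medians of 0.19 and 0.29 beside -0.09 and -0.07 for all genes. Counting intervals lay above 0 in both pairs for 4 of the 65, against 42 of 62 in excitatory neurons. Such counts depend on the UMIs of a class, because fewer UMIs give wider intervals. Per library, astrocytes held 563104 to 781937 UMIs over the genes of the class contrasts, and excitatory neurons 11665548 to 25736609. The share of all genes that met this interval rule was not counted. Cox7c stood there at 76.4, 87.6, 134 and 149 CPM, with log2 ratios of 0.80 and 0.76. In oligodendrocyte precursors, where 34 members were measured in 114 to 182 nuclei per library, 13 were higher and 4 lower in both pairs (28.8% and 32.7% of all genes) and the medians differed in sign, -0.12 and 0.34. In both pairs the counting intervals lay above 0 for 0 of these 34 members and below 0 for 0. The precursors also carried interneuron markers, a median of 3 to 4 of them per nucleus.

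In oligodendrocytes 14 of 75 measured members were higher in both fixed libraries and 42 lower, beside 25.5% and 47.1% of all genes. Their medians of -0.13 and -0.19 lay near those of all genes there (-0.13 and -0.11). Scaling by the median of gene ratios brought the members to -0.01 and -0.08, so relative to other oligodendrocyte genes there was little shift. Keeping the nuclei that Scrublet called doublets, which are left out here, turned the sign to 0.15 and 0.11. In nuclei of 1000 to 2000 UMIs the share was 0.316, 0.287, 0.294 and 0.303%, with no separation of fixed from unfixed libraries. Ndufs8 (18.0, 13.5, 28.6 and 28.6 CPM, log2 ratios of 0.66 and 1.07) and Ndufb11 (32.7, 34.3, 45.3 and 51.6 CPM, 0.47 and 0.59) ranked first among the higher members by the smaller of their ratios. In the other direction, Cox7a2l stood at 22.1, 28.4, 11.2 and 9.71 CPM, with log2 ratios of -0.96 (-1.66 to -0.31) and -1.53 (-2.37 to -0.79). In microglia 15 of 66 members were higher in both fixed libraries and 27 lower (28.7% and 35.6% of all genes), with medians of -0.26 and -0.05 beside -0.03 and -0.05 for all genes. Among nuclei of at least 1000 UMIs the microglial medians were 0.05 and 0.25, over 47 members, and with doublets kept they were 0.14 and 0.25. Sdha was higher in fixed microglia (79.5, 67.8, 134 and 102 CPM, 0.74 and 0.59).

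Ndufa4, a small subunit first assigned to complex I and later found in complex IV, was higher in the fixed libraries of neuronal classes and lower in those of oligodendrocytes and microglia. Its intervals included 0 in astrocytes (log2 ratios of 0.12 and -0.22) and in oligodendrocyte precursors (0.73 and 0.33). In excitatory neurons it stood at 17.6, 14.9, 25.6 and 25.0 CPM (log2 ratios of 0.54 and 0.75), whereas in oligodendrocytes it stood at 64.1, 57.3, 33.3 and 34.8 CPM (-0.94 and -0.72) and in microglia at 101, 71.9, 35.9 and 43.9 CPM (-1.48 and -0.70). Both unfixed libraries lay above both fixed ones in oligodendrocytes and microglia. Ndufa4, Ndufb10 and Uqcrh were the 3 of 74 members measured in at least 2 classes whose counting intervals lay above 0 in both pairs of one class and below 0 in both pairs of another. As 2.65% of all genes did so, this count is near the background and no trait of the members as a group. In oligodendrocytes Ndufb10 stood at 44.1, 41.5, 31.9 and 28.6 CPM and Uqcrh at 47.4, 50.5, 31.5 and 35.3 CPM. With doublets kept, the oligodendrocyte ratios were -0.29 and -0.12 for Ndufa4 and 0.01 and -0.02 for Ndufb10. Microglial Ndufa4 had -0.86 and -0.35 with doublets kept, and -1.98 and -0.37 in nuclei of at least 1000 UMIs. In oligodendrocyte nuclei of at most 3 times their class median UMIs Ndufb10 had -0.54 and -0.20. The difference between classes itself was not tested. Transcripts of 10 neuronal genes, counted as a measure of free RNA, took 0.497, 0.579, 0.223 and 0.370% of oligodendrocyte UMIs and 0.498, 0.943, 0.441 and 0.807% of microglial UMIs, higher in the unfixed library of each pair. Their part in the glial results was not tested.

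**Figure D4:**
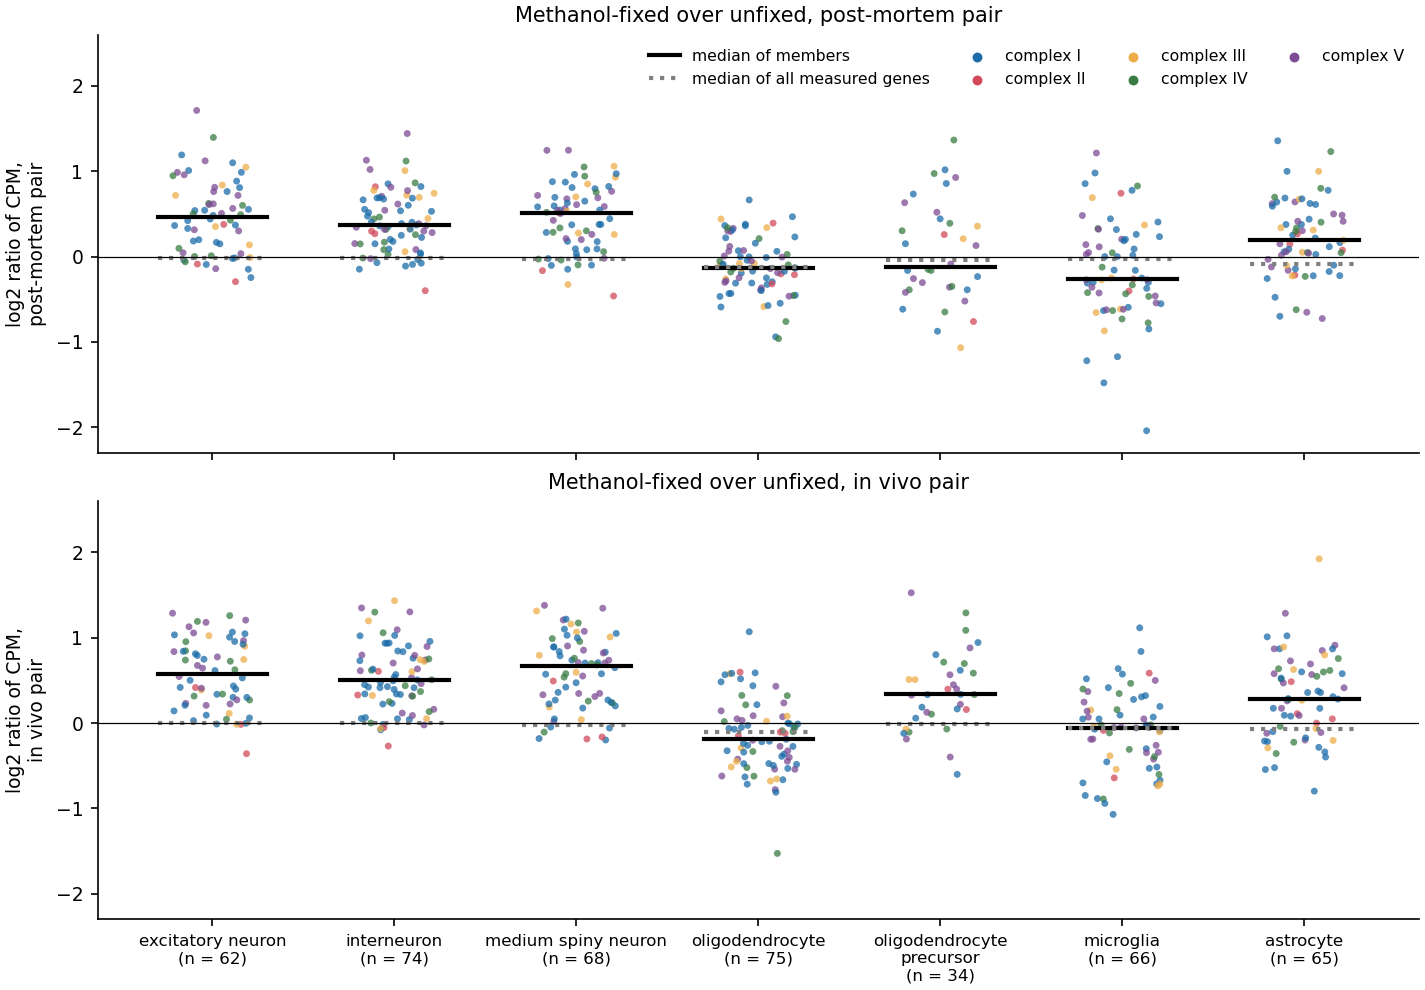
Log2 ratio of CPM, methanol-fixed over unfixed, of every measured member in each of 7 marker-gated classes, in the post-mortem pair (top) and the in vivo pair (bottom). Points are genes coloured by complex, solid lines the median of members and dotted lines the median of all measured genes. The solid line stands above the dotted one in both panels in the 3 neuronal classes (for excitatory neurons 0.46 and 0.58) and in astrocytes, and close to it in oligodendrocytes (-0.13 and -0.19).

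Respiratory chain transcripts took a smaller share of UMIs in the in vivo library than in the post-mortem library of the same fixation. Of the 71 measured members, 70 were lower in both pairs (59.5% of all genes) and 0 were higher in both (26.7% of all genes). Medians were -0.30 in the unfixed pair and -0.18 in the methanol pair, against -0.10 and -0.09 for all genes. No member was 1.5-fold higher or lower in both pairs (1.64% and 1.10% of all genes). Cox7b had the lowest ratios, -0.62 (-0.71 to -0.54) and -0.46 (-0.52 to -0.40). Ndufs8 had -0.52 and -0.43. Ndufa9, an accessory complex I subunit, was the exception among the measured members, at 0.02 (-0.10 to 0.14) and -0.06. Below the level limit, Cox7b2 went the other way: it stood at 5.51, 7.16, 7.17 and 9.66 CPM, higher in vivo by 0.38 (0.15 to 0.60) and 0.43 (0.25 to 0.61). Short genes in general showed this shift, since other protein-coding genes under 5 kb had medians of -0.38 and -0.25, beside -0.36 and -0.24 for members of that length.

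By class, in interneurons 57 of 74 members were lower in both pairs (44.7% of all genes), with medians of -0.32 and -0.19 beside -0.08 and -0.05 for all genes. In excitatory neurons 44 of 62 were lower (52.2% of all genes), with medians of -0.21 and -0.13 beside -0.09 and -0.06. In medium spiny neurons 38 of 68 were lower (37.2% of all genes), with medians of -0.15 and -0.04 beside -0.03 and -0.002. In astrocytes 28 of 65 were lower (25.1% of all genes), with medians of -0.20 and -0.11 beside 0.03 and 0.06. In microglia 31 of 66 were lower (45.7% of all genes), with medians of -0.26 and -0.17 beside -0.14 and -0.15. In oligodendrocyte precursors 13 of 34 were lower (27.8% of all genes), with medians of -0.28 and -0.05. In oligodendrocytes 18 of 75 were higher and 18 lower in both pairs (32.0% and 28.7% of all genes), with medians of 0.05 and -0.02 beside 0.01 and 0.01. Counting intervals lay below 0 in both pairs for 16 of 74 members in interneurons and 13 of 62 in excitatory neurons. They did so for 2 of 68 in medium spiny neurons, 1 of 65 in astrocytes and 0 in microglia, oligodendrocytes and precursors. These counts depend on the UMIs of each class, and the share of all genes under the same rule was not counted.

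The classes themselves were compared across the 4 libraries. UMIs were summed per class and library, and each class was set against the mean of the other 6 classes in edgeR's quasi-likelihood test with the library as a block (18 residual degrees of freedom). This test covered 14966 genes, 78 of them members. A member was called at a Benjamini-Hochberg adjusted p under 0.05 and at least 1.5-fold. The libraries differ in treatment, so the test asks for the average class difference over the treatments, which need not hold in each of them. Classes of a library come from the same preparation.

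Excitatory neurons held the lowest relative levels in this contrast, which did not match depth: 20 members were called lower and 0 higher (17.4% and 21.2% of all genes were). The median log2 fold change of members was -0.43, against -0.01 for all genes. Over all post-mortem unfixed nuclei the members' share fell from 0.397% at 500 to 1000 UMIs to 0.177% at 16000 or more. At 4000 to 8000 UMIs it was 0.186, 0.154, 0.266 and 0.254% in excitatory neurons and 0.228, 0.227, 0.253 and 0.229% in 23 to 41 oligodendrocytes per library. Both other neuronal classes of that depth lay above excitatory neurons in every library. The part of depth in the class differences was not tested. Of the 20, 11 belonged to complex I, which held 35 of the 78 tested members. Ndufb11 was lower by -1.21 ± 0.11 (log2 fold change ± SE, edgeR adjusted p = 1.2e-10), and Uqcrb by -0.91 ± 0.15 (adjusted p = 5.4e-06). Each SE, here and below, is the absolute log2 fold change divided by the square root of the F statistic. It is an approximation, not a value that edgeR returns. The count of lower members depended on the libraries. Without the post-mortem unfixed library 11 of 77 members were called lower (15.0% of all genes), near the background. The unfixed libraries alone gave 37 of 78 (15.1% of all genes), and the methanol-fixed alone gave 6 of 78 (12.9% of all genes), below the background. With scaling by total UMIs alone 47 members were called lower (25.7% of all genes), as the median of all genes then shifted to -0.24 and that of members to -0.65. Medium spiny neurons had 3 members called lower and 1 higher (20.0% and 19.6% of all genes), and Ndufb11 was again among the lower ones (-0.81 ± 0.11). With total UMIs alone 15 were called lower there (29.0% of all genes), and the median of all genes shifted from -0.02 to -0.28.

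Interneurons had 5 members called higher and 0 lower (18.3% and 12.7% of all genes). Of the 5, 4 were in complex IV, which held 14 of the 78 tested members. Cox5a (0.65 ± 0.09), Cox7b (0.65 ± 0.10) and the c-ring gene Atp5g1 (0.71 ± 0.14) were among them. Astrocytes had 13 members called higher and 0 lower (17.9% and 18.0% of all genes), among them Atp5mpl (1.09 ± 0.21), Ndufb11 (1.05 ± 0.15) and the membrane anchor Sdhd (0.85 ± 0.25). The methanol-fixed libraries alone gave astrocytes 19 of 78 higher (2459 of 15043 genes) and DESeq2 18 of 83 (3289 of 26337 genes), both above the background. The unfixed libraries alone gave 11 of 78 (2404 of 15205 genes), below it. Oligodendrocytes had 10 called higher and 2 lower (18.0% and 20.8% of all genes). In oligodendrocytes the unfixed libraries alone gave 24 higher (16.5% of all genes) with a member median of 0.44, and the methanol-fixed alone 7 (16.9% of all genes) with a median of -0.02. Ndufb11 led the common subunits there at 1.28 ± 0.11 (edgeR adjusted p = 3.8e-11), with Ndufs7 (0.92 ± 0.12) and Ndufs8 (0.89 ± 0.16), the adjacent core subunits that lead electrons to ubiquinone. Ndufs4 was lower in oligodendrocytes (-0.61 ± 0.08). Oligodendrocyte precursors had 1 called higher and 4 lower (13.0% and 10.0% of all genes), and microglia 1 higher (Ndufs8, 0.66 ± 0.22) and 1 lower (Ndufs1, -0.63 ± 0.12), beside 18.8% and 17.2% of all genes. Scaling by total UMIs alone gave microglia 8 higher and 0 lower (25.2% and 10.3% of all genes). With all 4 libraries and TMM scaling, the lower calls of excitatory neurons were the ones in which the members' share exceeded the background, and that excess was absent without the post-mortem unfixed library and in the methanol-fixed libraries alone. In some other settings the higher calls of astrocytes and of oligodendrocytes exceeded it too.

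The isoforms with restricted expression gave the sharpest class patterns, from few UMIs. Cox6a2, known as the heart and muscle isoform of subunit 6a (chr7:128205435-128206387, minus strand, mm10), was called higher in interneurons by 2.72 ± 0.41 (edgeR adjusted p = 2.4e-06). Interneurons held 27, 11, 85 and 42 of its UMIs, that is 5.62, 2.28, 11.3 and 7.31 CPM, while excitatory neurons held 0.768, 0.218, 0.256 and 0.310 CPM. Microglia held 5, 2, 1 and 0 of its UMIs, too few to give a level. The common isoform Cox6a1 stood at 35.0, 29.7, 47.6 and 35.4 CPM in interneurons and was not called there. Within interneurons, a split made after the values were seen set nuclei with a UMI of Pvalb, the marker of fast-spiking cells, against those without: Cox6a2 was at 17.3, 2.47, 25.1 and 13.4 CPM in 78 to 148 nuclei with Pvalb and at 3.46, 2.27, 7.70 and 6.19 CPM in the others. In the in vivo unfixed library this rests on 1 UMI. Nuclei with a Pvalb UMI were deeper, with medians of 6423, 5069, 10354 and 10814 UMIs against 4412, 3233, 6868 and 7224.

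Cox6b2, known as the testis isoform of subunit 6b, was called higher in oligodendrocytes (2.89 ± 0.30), their precursors (3.14 ± 0.51) and astrocytes (3.13 ± 0.41), and lower in medium spiny neurons (-2.16 ± 0.51). Oligodendrocytes held 17, 17, 19 and 19 of its UMIs (6.95, 7.66, 6.88 and 9.71 CPM). Excitatory neurons held 1, 0, 0 and 1 UMI, and the fitted fold change there (-5.45) depends on these 2 UMIs. Cox7b2, a subunit 7b isoform, showed the opposite order: it was higher in medium spiny neurons (1.07 ± 0.21, with 7.83, 9.15, 8.41 and 11.8 CPM) and in interneurons (0.65 ± 0.23), and lower in oligodendrocytes (-1.50 ± 0.37, with 2.86, 0.902, 2.54 and 2.56 CPM).

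**Figure D5:**
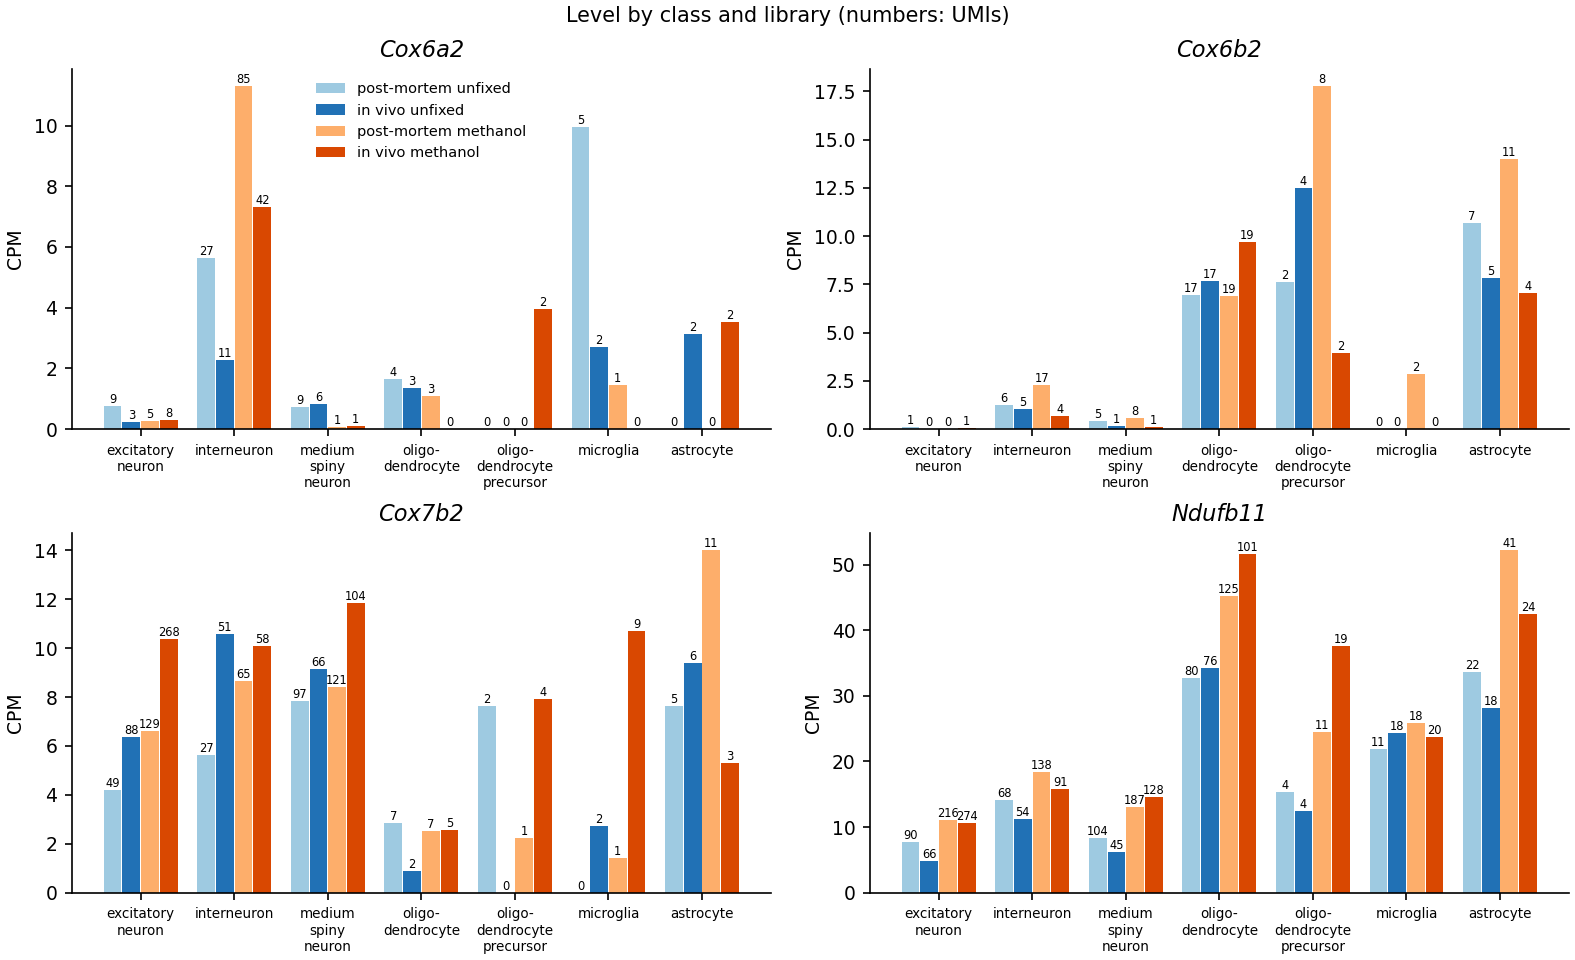
CPM of Cox6a2, Cox6b2, Cox7b2 and Ndufb11 in 7 marker-gated classes, 1 bar per library, with the number of UMIs above each bar. Cox6a2 has most UMIs in interneurons (27, 11, 85 and 42), Cox6b2 stands in oligodendrocytes, their precursors and astrocytes, Cox7b2 is low in oligodendrocytes, and Ndufb11 is higher in oligodendrocytes and astrocytes than in the 3 neuronal classes in every library.

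Other genes of the pathway, from lists of assembly factors, carriers and regulators, are given by the same counts, to be read beside the 41.0% of all genes higher and 46.9% lower in both fixed libraries. A difference between these lists and the subunits was not tested. Of 8 measured mitochondrially encoded subunits, 8 were lower in both fixed libraries, with medians of -0.51 and -0.42. The complex IV gene mt-Co3 stood at 78.6, 69.6, 53.5 and 49.2 CPM. Of 13 measured complex I assembly factors 8 were higher and 3 lower, with medians of 0.09 and 0.25. Ndufaf4 stood at 55.2, 43.8, 91.6 and 73.6 CPM and Tmem126a at 83.7, 66.3, 48.6 and 37.5 CPM, opposite in direction. Of 14 complex IV assembly factors 7 were higher and 3 lower (medians of 0.08 and 0.10), and of 5 complex III assembly factors 1 was higher and 4 lower. Both measured complex II assembly factors were higher (medians of 0.37 and 0.32), as were 4 of 5 genes of the list of complex V assembly factors and its inhibitor (medians of 0.22 and 0.19). Of 9 electron carrier genes 5 were higher and 4 lower, with medians of 0.16 and 0.20. The 13 measured regulators of respiratory chain transcription had medians of -0.23 and -0.13, with Nrf1 itself at 84.5, 85.2, 72.2 and 67.4 CPM. Of 14 tricarboxylic acid cycle enzymes 7 were higher and 4 lower (medians of 0.04 and 0.14). In the harvest comparison, 12 of 13 complex I and 13 of 14 complex IV assembly factors were lower in vivo in both pairs, beside 59.5% of all genes. So were 13 of 14 tricarboxylic acid cycle enzymes, 8 of 9 electron carrier genes and 6 of 13 regulators.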

How the data were processed

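Single-nucleus 3' libraries from 4 mouse brain preparations were used, 1 per group. The authors deposited filtered matrices of raw UMI counts, with mm10 as genome build per the submitters' processing notes. The aligner, cell caller, annotation release and strand setting are not given in the sources used here, so reads of a member and of a gene overlapping it on the other strand cannot be told apart. The members and lists were chosen with earlier results of these data known.

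Nuclei with at least 500 UMIs, 300 genes and at most 5% mitochondrial UMIs were kept, and doublets called by Scrublet in scanpy 1.11.5 (12.7, 15.2, 8.95 and 10.7% of nuclei) were left out. Counts were summed per library and class. Ratios of CPM had 0.5 counts added, and their exact conditional 95% intervals cover counting error only. Within a class, a measured gene also needed 50 UMIs over the libraries. Class contrasts used edgeR 4.0.16 (TMM, filterByExpr) in R 4.3.3, with DESeq2 1.42.0 as an alternative. With the library as a block, their p-values measure how class differences vary between these 4 libraries, which differ in treatment. Spread between animals of a group is not covered. Gene positions and lengths came from GENCODE, matched for 32158 of 32285 identifiers.

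Tested on simulated counts, the microglia contrast recovered 151 of 188 genes changed 2-fold among 14076 genes, with 2 false calls. Apart from the changed genes, these counts had the same relative gene levels in every class and library. The real classes differ in many genes, so the false calls of the real contrasts are not covered. For the ratios, the simulated counts held counting error only, so the figures do not cover spread between libraries. In all nuclei, 100% of 200 genes changed 2-fold passed 1.5-fold in both pairs among 9766 genes. In oligodendrocytes 95.0% of 200 did, and 9 unchanged genes passed 1.5-fold in both pairs, among 9572 genes. Named members were, by rule, the 3 highest in each complex, up to 8 per direction past 1.5-fold, the leading members of each class comparison, the paralogous isoforms and those nearest to the level limit. Ndufa9, Ndufs1, Ndufaf4, Tmem126a, Nrf1 and the Pvalb split were named after their values were seen. Alternatives covered scaling, level filters, added counts, doublets, depth, the gate, clusters and leaving out libraries. Vascular nuclei (11 to 34 per library) were under the limit of 100 nuclei and entered no comparison.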

Additional observations from a re-analysis of the deposited data

Results flagged for a closer look

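The ratio of methanol-fixed to unfixed libraries went opposite ways in different classes of nuclei, and the difference between classes was not tested. Median log2 ratios of the members, post-mortem pair first, were 0.46 and 0.58 in excitatory neurons, 0.37 and 0.50 in interneurons, 0.51 and 0.67 in medium spiny neurons and 0.19 and 0.29 in astrocytes. They were -0.13 and -0.19 in oligodendrocytes and -0.26 and -0.052 in microglia. All genes had -0.13 and -0.11 in oligodendrocytes, and rescaling by the median of gene ratios brought the members there to -0.01 and -0.08. With doublets kept the oligodendrocyte medians were 0.15 and 0.11, and in nuclei of at least 1000 UMIs the microglial ones were 0.05 and 0.25, so the opposite sign depends on these choices.

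The log2 ratios of Ndufa4 were 0.54 and 0.75 in excitatory neurons, 0.40 and 0.54 in interneurons and 0.28 and 1.10 in medium spiny neurons, against -0.94 and -0.72 in oligodendrocytes and -1.48 and -0.70 in microglia. Those of Ndufb10 were 0.76 and 0.96 in excitatory neurons and 0.65 and 0.74 in medium spiny neurons, against -0.47 and -0.53 in oligodendrocytes. Those of Uqcrh were 0.35 and 0.39 in excitatory neurons, 0.45 and 0.72 in interneurons and 0.28 and 0.59 in medium spiny neurons, against -0.59 and -0.51 in oligodendrocytes. With doublets kept the oligodendrocyte ratios were -0.29 and -0.12 for Ndufa4, 0.01 and -0.02 for Ndufb10 and -0.32 and -0.39 for Uqcrh. Microglial Ndufa4 had -0.86 and -0.35 with doublets kept. These genes are 3 of 74 members, beside 2.65% of all genes, so the count is near the background.

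Vascular nuclei, too few for a comparison, held 4 UMIs of Ndufa4l2 in the post-mortem methanol-fixed library. In the in vivo methanol-fixed library they held 26 UMIs of Ndufa4l2 and 8 of Cox4i2, a complex IV isoform, but 25 of the 26 and 8 of the 8 came from 1 barcode and are not independent counts. In the in vivo unfixed library they held 3 and 1 UMIs of these genes, and in the post-mortem unfixed library 0 and 0.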

How the results depend on the processing

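No paired analysis was possible because each group holds 1 library, so the groups share a single replicate number and no replicate block can be fitted; an additive fit of fixation and harvest over the 4 libraries was not run. For fixation in all nuclei, a 50 CPM filter gave an in vivo median of 0.31 with 9 members higher and 3 lower, members without an opposite-strand overlap had 5 lower, nuclei of 4000 to 8000 UMIs gave 0.50 and 0.82 with 1 lower, and equal class weights gave 0.16 and 0.25. For harvest, median-of-ratios scaling and no CPM filter each gave 1 member higher, equal class weights 3, the 50 CPM filter 12 lower, and 4000 to 8000 UMIs an unfixed-pair median of -0.44. In excitatory neurons the 50 CPM filter gave 0.15 and 0.21.

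In class contrasts, 78 members were tested unless stated, and brackets give the number of all genes called in the same setting. Several member counts lie at or below that background. Total UMIs alone (14966 genes) gave 47 excitatory (3849), 15 medium spiny (4335), 0 precursor (1035) and 0 microglial members (1536) lower. It gave 8 microglial members higher (3769). The stricter gate (14918 genes) gave 8 interneuron (2865) and 2 microglial members (2923) higher. Lower there were 1 medium spiny (2861), 8 precursor (1618) and 4 microglial members (2666). The looser gate (15363 genes) gave 1 interneuron (2108) and 0 microglial (2180) higher, and 1 oligodendrocyte (3472), 1 precursor (582) and 0 microglial (1320) lower. Clusters (14866 genes) gave 1 excitatory (3440) and 4 microglial (3252) higher, and 1 oligodendrocyte (3718) and 3 microglial (3095) lower. DESeq2 (83 members, 26337 genes) gave microglia 3 higher (3424) and 0 lower (2161), and no count filter (83 members, 26337 genes) 3 lower (2677). The 2 unfixed libraries alone (15205 genes) gave 37 excitatory (2290), 7 medium spiny (2514), 0 oligodendrocyte (2237) and 1 precursor (592) lower. Higher there were 2 interneuron (2434), 24 oligodendrocyte (2510) and 10 microglial members (2513). The 2 methanol-fixed alone (15043 genes) gave 6 excitatory (1948), 1 interneuron (1488) and 7 microglial (2073) lower, and 7 oligodendrocyte members (2543) higher. Leaving out 1 library at a time (77 or 78 members, 14815 to 15206 genes) gave 0 to 1 excitatory members higher (3058 to 3410) and 11 to 24 lower (2221 to 2481). It gave 1 to 5 microglial higher (2486 to 2859) and 2 to 4 lower (2109 to 2683), and 2 to 5 precursor lower (1122 to 1413). It also gave 1 to 2 oligodendrocyte lower (2679 to 3129) and 8 to 13 higher (2527 to 2722), and 10 to 18 astrocyte higher (2498 to 2697).

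The share in all nuclei was 0.231% (post-mortem unfixed) and 0.190% (in vivo unfixed) at 1000 UMIs or more, 0.231, 0.194 and 0.256% (post-mortem unfixed, in vivo unfixed, in vivo methanol) with doublets kept, and 0.238, 0.194 and 0.256% for every barcode. At 1000 UMIs or more, complex I had 0.0903 and 0.0743%, complex IV 0.0452 and 0.0349% and complex V 0.0571 and 0.0476% in the unfixed libraries, and complex III 0.0168% in vivo unfixed. With doublets kept, complexes I and IV had 0.0903 and 0.0453% post-mortem unfixed and 0.0953 and 0.0524% in vivo methanol, and complex V 0.0569% post-mortem unfixed. Every barcode gave complex IV 0.0480% post-mortem unfixed, and complexes I and IV 0.0953 and 0.0524% in vivo methanol. In oligodendrocytes the share at 1000 UMIs or more was 0.287, 0.299 and 0.275% in the first 3 libraries, and 0.255 and 0.251% in the unfixed ones with doublets kept. In microglia it was 0.311 and 0.232% unfixed at 1000 UMIs or more, and 0.271, 0.243 and 0.308% in the first 3 libraries with doublets kept. With doublets kept, astrocytes had 0.317, 0.272, 0.377 and 0.329%, and medium spiny neurons 0.276% post-mortem methanol. Within classes, 38 of the fixation values moved and 286 did not, and 42 and 282 of the harvest values. The causes were not tested. Median depth was 921 to 1413 UMIs in oligodendrocyte nuclei and 5610 to 13334 in excitatory neurons.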

Other observations

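A few barcodes carried far more respiratory chain UMIs than the rest. With at least 1% and 20 UMIs of the 84 genes there were 10, 7, 10 and 9 such nuclei, 36 of 44276, and they held 0.621, 0.710, 0.450 and 0.796% of all member UMIs. Without them the library shares were 0.234, 0.194, 0.290 and 0.252%. In the in vivo unfixed oligodendrocytes 3 such nuclei moved the share from 0.308 to 0.291%.

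In the in vivo methanol-fixed library, 1 barcode gated as vascular had 35843 UMIs, of which 786 (2.19%) fell on members and 4.10% on ribosomal protein genes. It held 25 of the 26 UMIs of Ndufa4l2 and 8 of the 8 UMIs of Cox4i2 in vascular nuclei of that library, so those values rest on 1 barcode.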
